A study of Mus musculus with 4 samples.

Results

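The joining (J) segments of the T cell receptor alpha locus, the genes named Traj, were examined in an array study of regulatory T cells, which restrain immune responses, sorted from mouse spleen. The members are all transcript clusters, the array's gene-level units, whose single platform gene symbol is Traj followed by a number. This gave 18 clusters of the 65528 in the table, 1 for each of 18 J segments. RefSeq lists 60 Traj genes in mouse, so the other 42 were not analysed here. Each cluster has 1 value per array on the log2 scale, where a step of 1 is a 2-fold change in signal.

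A T cell receptor alpha chain gene is assembled in the thymus, when the RAG recombinase joins a variable (V) segment to a J segment and removes the DNA between them. Splicing then joins the J segment to the constant gene, Trac. The J segments lie in a row between the V segments and Trac, and the numbers run down toward Trac, so Traj61 is nearest to the V segments and Traj1 nearest to Trac. A cell usually starts with J segments on the V side and can replace a first join with one farther toward Trac. Each T cell clone keeps its own choice, and a polyclonal population holds many.

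Both groups came from mice aged 7 to 8 weeks on a C57BL/6 background that carry a transgene in which Foxp3 control sequences drive a fusion of green fluorescent protein and Cre recombinase, B6-Tg(Foxp3EGFP-cre)1cJbs/J. The control group, labelled WT, carried that transgene alone. The other group, labelled KO, also carried BMI1-flox, a Bmi1 gene that Cre can cut in Foxp3-expressing cells, the cells that were sorted here as 15000 to 40000 green cells per sample. The design compares 2 arrays labelled KO (replicates 1 and 2) with 2 labelled WT (replicates 1 and 3). Titles and treatment notes call the cells unstimulated, but the series text speaks of activation with antibodies to CD3 and CD28 for 24 hours, and which is right is unknown. Separate animals are not stated for the samples, and each p-value therefore reflects the spread among these 4 samples alone, which may be technical.

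The targeted gene went against the labels. Bmi1 read 8.98 and 8.98 in the arrays labelled WT and 9.58 and 9.91 in those labelled KO, which put it above the controls in both KO samples (limma adjusted p 0.289). Which exons its cluster covers is not stated, and the reading is no check of the genotype if they lie outside the deleted stretch. The directions below therefore rest on the labels. The table's columns had medians of 4.65 to 4.72, and Pearson's r between arrays was 0.991 to 0.994 across clusters, which are not independent replicates. Of the T cell markers, Cd3d, Cd3e, Cd3g and Cd4 were measured and none read below 12.55 on any array, while Il2ra, Ctla4 and Ikzf2, which mark regulatory T cells, read 14.97 to 15.01, 12.27 to 12.68 and 11.89 to 12.16. Lrrc32, another marker of these cells, moved with the groups: it read 12.05 and 12.28 in the arrays labelled WT and 11.18 and 10.48 in those labelled KO, a difference of -1.34 (SE 0.25; limma adjusted p 0.286). Foxp3 has no cluster of its own in the annotation used. Of the B cell markers, 3 of the 4 measured (Cd79a, Ms4a1 and Pax5) read below the median row on all 4 arrays, and Cd79b read 7.42 to 7.91, above it. The 3 myeloid markers read below it on all 4 arrays, as did Cd8a of CD8 T cells and Zbtb16 of invariant NKT cells. Klrb1c, the other NKT marker, read 4.66 to 5.09 and was below on 3 arrays, and Sox13 of gamma delta T cells read 5.06 to 5.20, close to the median row but not below it. All 3 plasma cell genes measured (Jchain, Mzb1 and Ighg2b) were higher without overlap in the arrays labelled KO, as were 21.1% of all rows. Their limma adjusted p were 0.195, 0.343 and 0.0972, and Mzb1 read below the median row on all 4 arrays. The mean reading of the 3 genes was 5.58 and 5.57 in the arrays labelled WT and 6.69 and 6.62 in those labelled KO. Cd8b1, the beta chain of the CD8 coreceptor, read 9.74 and 10.78 against 10.71 and 11.26, with overlap. The part of such cells, and of the lower Lrrc32, in the readings of the J segments was not tested.

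Of the 18 segments, 14 (77.8%) were lower in the arrays labelled KO and 4 were higher, where 47.9% of all rows were lower. The median difference was -0.36 on the log2 scale against 0.01 over the 29860 rows of the fit. Without WT replicate 1 the split was 10 lower and 8 higher, and without KO replicate 1 it was 11 lower and 6 higher, with no difference for Traj55. Traj3 stood far below all others, at 0.114 times its WT level, and its neighbour Traj2 had the highest difference, at 1.78 times. At a limma adjusted p under 0.05 over all rows, 0 segments passed in either direction, where 0.0067% of all rows passed. The lowest limma adjusted p, 0.0972, was that of Traj3. At an unadjusted limma p under 0.05 there were 2 segments higher (11.1%) and 6 lower (33.3%), against 6.45% and 3.81% of all rows. Of the rows with a mean at or above the median row, which hold 16 of the 18 segments, it was 10.4% and 4.18%. Both counts of segments were smaller when KO replicate 1 or KO replicate 2 was left out, fits for which the share of all rows is not given. A change of 2-fold or more was found for 0 segments upward and for 3 downward, Traj3, Traj1 and Traj36, where the background was 0.388% and 0.278%. Both counts were larger without WT replicate 3, a fit for which the share of all rows is not given. In cells measured in bulk, fewer cells that use a segment and less of its RNA per cell cannot be told apart.

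Both arrays labelled KO lay below both labelled WT for 8 segments and above them for 2, with 17.5% and 21.1% of all rows separated in these directions, and the groups overlapped for the other 8. A separation is a weak criterion with 2 arrays a side, and an exact two-sided permutation test cannot give a p below 0.333 in this design. The count of lower segments was larger in each fit without an array. That of higher segments was larger in all but the fit without KO replicate 2. The share of all rows in these fits is not given, and 2 arrays and 1 separate more easily than 2 and 2. The median difference moved most with the WT arrays: it was -0.86 without WT replicate 3 and -0.19 without WT replicate 1. It was below 0 without each of the 4 arrays.

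**Figure D1:**
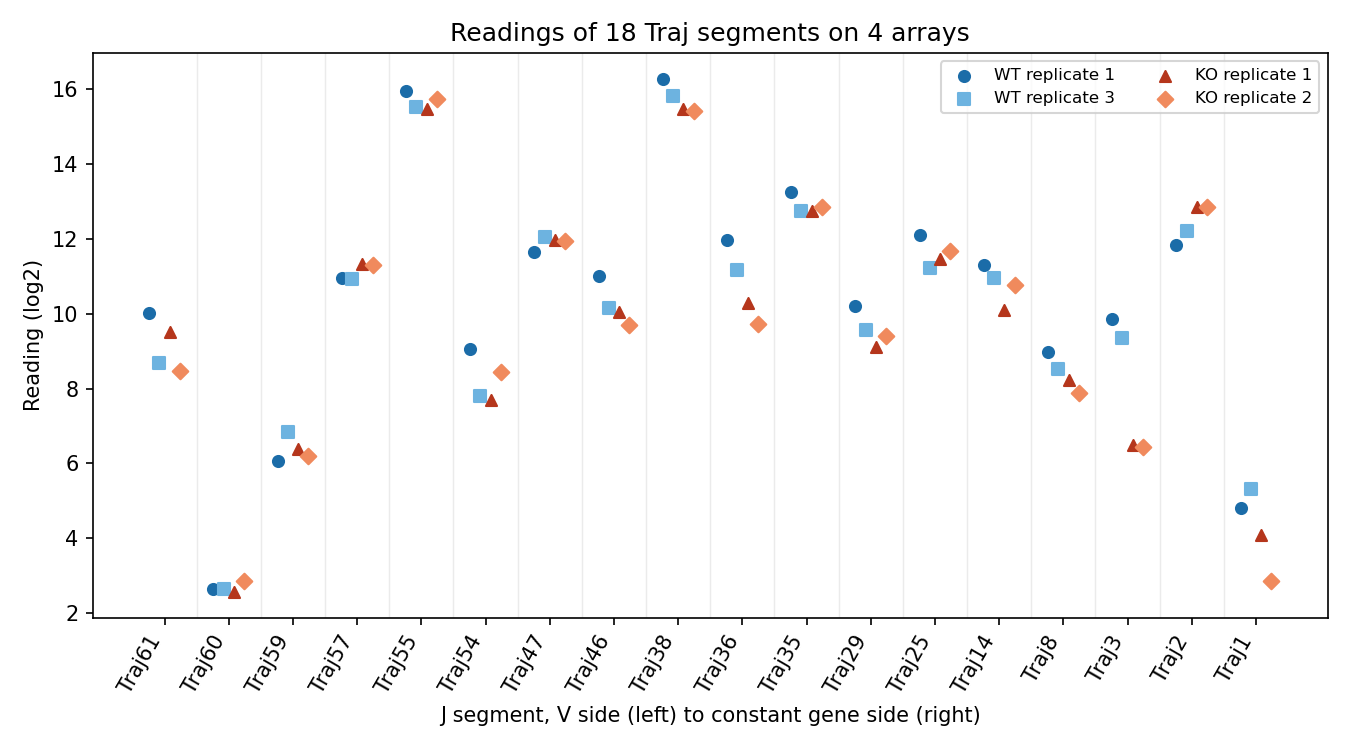
Readings on the log2 scale (vertical axis) of the 18 Traj segments, ordered from the V side of the locus at the left to the constant gene side at the right, with 1 point per array. Traj3 is the segment whose WT points (9.86 and 9.34) and KO points (6.50 and 6.43) are farthest apart.

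The segments nearest to Trac came with the widest range of differences. Traj1, Traj2 and Traj3 are neighbours in RefSeq's order, and they differed in opposite directions. Traj3, listed by RefSeq as a J segment, read 9.86 and 9.34 in WT replicates 1 and 3 and 6.50 and 6.43 in KO replicates 1 and 2. The group means were 9.60 ± 0.37 and 6.46 ± 0.05 (SD, n = 2 each). The difference of -3.14 (SE 0.20) had a 95% interval of -3.65 to -2.62, which is 8.78-fold higher in the arrays labelled WT, and it was larger than the gaps of 0.52 and 0.07 between arrays of one group. Its limma adjusted p was 0.0391 when only the 14938 rows with a mean of at least 5.04 were tested, a test in which 0.0268% of rows passed downward, and between 0.540 and 0.796 without each array in turn. Leaving out each array in turn kept the difference between -3.40 and -2.88.

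Traj2 lies next to Traj3 on the side of Trac and went the other way. It read 11.83 and 12.22 in the arrays labelled WT and 12.86 in each labelled KO, so both KO readings were above both WT readings. The difference was 0.83 (SE 0.16; 95% interval 0.44 to 1.23), with an unadjusted limma p of 0.00278 and a limma adjusted p of 0.286. This was larger than the WT gap of 0.39.

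Traj1, a pseudogene in RefSeq and the last segment before Trac, read 4.80 and 5.32 in the arrays labelled WT and 4.09 and 2.87 in those labelled KO. Its difference was -1.58 (SE 0.42; 95% interval -2.64 to -0.52; limma adjusted p 0.364). It was dim: 3 of its 4 readings lay below the median row of their arrays, and the KO arrays themselves were 1.22 apart. The table holds no background measure, so differences of dim segments can be understated.

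Traj8 and Traj14, pseudogenes farther from Trac, were lower in both arrays labelled KO. Traj8 read 8.98 and 8.53 against 8.22 and 7.88, a difference of -0.70 (SE 0.21; limma adjusted p 0.392). Traj14 read 11.31 and 10.95 against 10.10 and 10.77, with the same size of difference, -0.70 (SE 0.26; limma adjusted p 0.471). For Traj8 the KO arrays were 0.34 apart and for Traj14 they were 0.67 apart, which nearly equals the difference of Traj14. In the stretch from J1 to J20, 4 of the 5 measured segments were thus lower without overlap and 1 was higher. Of all rows, 17.5% and 21.1% were separated in these directions.

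In the middle stretch, from J21 to J40, all 5 measured segments read lower in the mean of the arrays labelled KO, against 47.9% of all rows. For 3 of them the groups did not overlap, against 17.5% of all rows in this direction. Traj36, a pseudogene in RefSeq, had readings of 11.97 and 11.16 in the arrays labelled WT and 10.30 and 9.73 in those labelled KO. Its means were 11.57 ± 0.57 and 10.02 ± 0.40 (SD, n = 2 each), and the difference of -1.55 (SE 0.33; 95% interval -2.38 to -0.72) is a level 2.93-fold higher in the arrays labelled WT. The unadjusted limma p was 0.00474 and the limma adjusted p 0.295. The difference exceeded the gaps of 0.81 and 0.57 within the groups.

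Traj38 read 16.28 and 15.82 in the arrays labelled WT and 15.47 and 15.41 in those labelled KO. Its difference was -0.61 (SE 0.16; limma adjusted p 0.351), larger than the WT gap of 0.46. Traj29 had a difference of about the same size, -0.62 (SE 0.25; limma adjusted p 0.497), from 10.20 and 9.56 against 9.11 and 9.41. The groups of Traj29 did not overlap, but WT replicate 3 was only a little above KO replicate 2, and the WT arrays were 0.64 apart, more than the difference.

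Traj35 and Traj25 showed no separation of the groups. Traj35 read 13.24 and 12.74 in the arrays labelled WT and 12.74 and 12.84 in those labelled KO, with a difference of -0.20 (95% interval -0.67 to 0.27). Traj25 read 12.11 and 11.22 against 11.45 and 11.67, so that the highest and the lowest reading both came from arrays labelled WT, and its difference was -0.11 (95% interval -0.88 to 0.67). Without WT replicate 1 both differences turned positive, 0.05 for Traj35 and 0.34 for Traj25.

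On the V side, from J41 to J61, 8 segments were measured, and 1 was separated in each direction, against 17.5% of all rows downward and 21.1% upward. Traj57 had gaps of only 0.01 and 0.02 within the groups: it read 10.95 and 10.94 in the arrays labelled WT and 11.32 and 11.30 in those labelled KO. Its difference was 0.37 (SE 0.11; 95% interval 0.08 to 0.65), with an unadjusted limma p of 0.0221 and a limma adjusted p of 0.404, and it stayed between 0.36 and 0.37 without each array in turn. Traj46 was lower in both arrays labelled KO, with 11.01 and 10.15 against 10.06 and 9.69. Its difference of -0.70 (SE 0.31; limma adjusted p 0.533) was smaller than the gap of 0.86 between the WT arrays.

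The other 6 segments on this side had overlapping groups. Traj47 had a difference of 0.10, Traj59 of -0.16 and Traj55, which read 15.47 to 15.96 on the 4 arrays, of -0.13. Traj60, a pseudogene, read 2.57 to 2.87, below the median row on every array, and its difference of 0.06 carries little information.

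Traj61 and Traj54 had the widest gaps between the WT arrays. Traj61, the pseudogene at the V end of the row, read 10.01 and 8.69 in the arrays labelled WT and 9.51 and 8.47 in those labelled KO, gaps of 1.32 and 1.04 within groups beside a difference of -0.36 between them. Traj54, also a pseudogene, read 9.05 and 7.81 against 7.70 and 8.45, with gaps of 1.24 and 0.75 and a difference of -0.36. Both 95% intervals, -1.72 to 1.00 and -1.54 to 0.83, include 0.

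**Figure D2:**
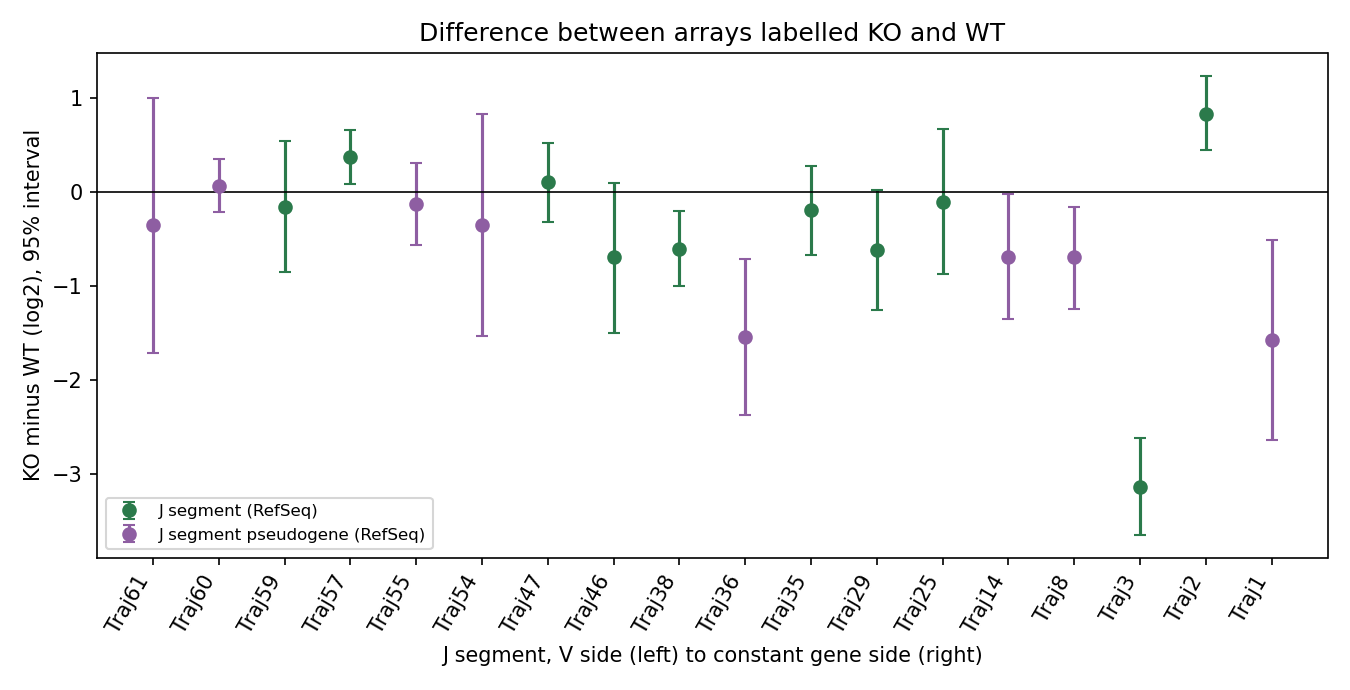
Difference of the mean of the arrays labelled KO from that of the arrays labelled WT (vertical axis, log2) for each Traj segment from the V side (left) to the constant gene side (right), with 95% intervals from limma on 2 arrays per group and colours for the RefSeq gene type. The intervals of Traj57 and Traj2 lie above 0, and those of Traj38, Traj36, Traj14, Traj8, Traj3 and Traj1 lie below it, before adjustment for the rows tested.

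Position in the row and difference were related only loosely. Over the 18 segments, Pearson's r between J number and difference was 0.44 and Spearman's rho 0.43, given as a description, since the segments share their 4 arrays. The median difference was -0.70 for J1 to J20, -0.61 for J21 to J40 and -0.15 for J41 to J61. Of the 7 pairs of adjacent RefSeq segments with both members measured, 5 had differences of opposite sign. Without each array in turn it was 4 to 5 pairs, and 2 pairs, Traj3 with Traj2 and Traj2 with Traj1, had opposite signs in all 4 of these fits. The other 3 rest on small differences of Traj61, Traj60, Traj59 or Traj47 that change sign with 1 array. Traj36 and Traj35, 1 of the pairs with the same sign, had differences of -1.55 and -0.20.

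By RefSeq type, 10 of the 18 segments are J segments and 8 are J segment pseudogenes, so the table covers 10 of RefSeq's 51 and 8 of its 9. Pseudogenes here are segments whose sequence is not thought to give a working receptor chain. The median difference was -0.18 for J segments, of which 7 of 10 were lower, and -0.53 for pseudogenes, of which 7 of 8 were lower. Of all rows, 47.9% were lower. Both segments that were higher without overlap, Traj57 and Traj2, are J segments, while the 8 lower without overlap were 4 of each type. Of all rows, 21.1% were higher and 17.5% lower without overlap. The difference between the types was not tested. A cluster's reading cannot separate RNA of a rearranged receptor gene from RNA that passes through an unused J segment.

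Readings of different segments depend on their probes and were not ranked as abundance. Of the 18 segments, 16 lay above the median row on every array. The order of the segments was much the same on all arrays, with Spearman's rho of 0.977 between the WT arrays, 0.993 between the KO arrays and 0.946 to 0.975 across the groups.

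The arrays of one group differed more for these segments than for most rows. The gap between the WT arrays had a median of 0.51 for Traj, against 0.13 over all rows and 0.16 over the brighter rows, those with a mean at or above the median row. The gap between the KO arrays had a median of 0.28, against 0.12 and 0.14. The median absolute difference between the groups was 0.49, and for 10 of the 18 segments it was no larger than the wider of the 2 gaps. A difference larger than both gaps was found for 6 segments downward and 2 upward, with 12.4% and 15.6% of all rows.

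WT replicate 1 was the array that most often stood highest. It gave the highest reading for 12 of the 18 segments, or 66.7%, against 27.8% of all rows, and its median deviation from the segments' own means was 0.53. The other 3 arrays had median deviations of -0.02 (WT replicate 3), -0.17 (KO replicate 1) and -0.11 (KO replicate 2). Within the control group WT replicate 1 was above WT replicate 3 for 51.1% of all rows. Over all 18 Traj segments the median of WT replicate 1 minus WT replicate 3 was 0.46, and WT replicate 1 was above for 13. The exceptions were Traj60, Traj59, Traj47, Traj2 and Traj1.

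**Figure D3:**
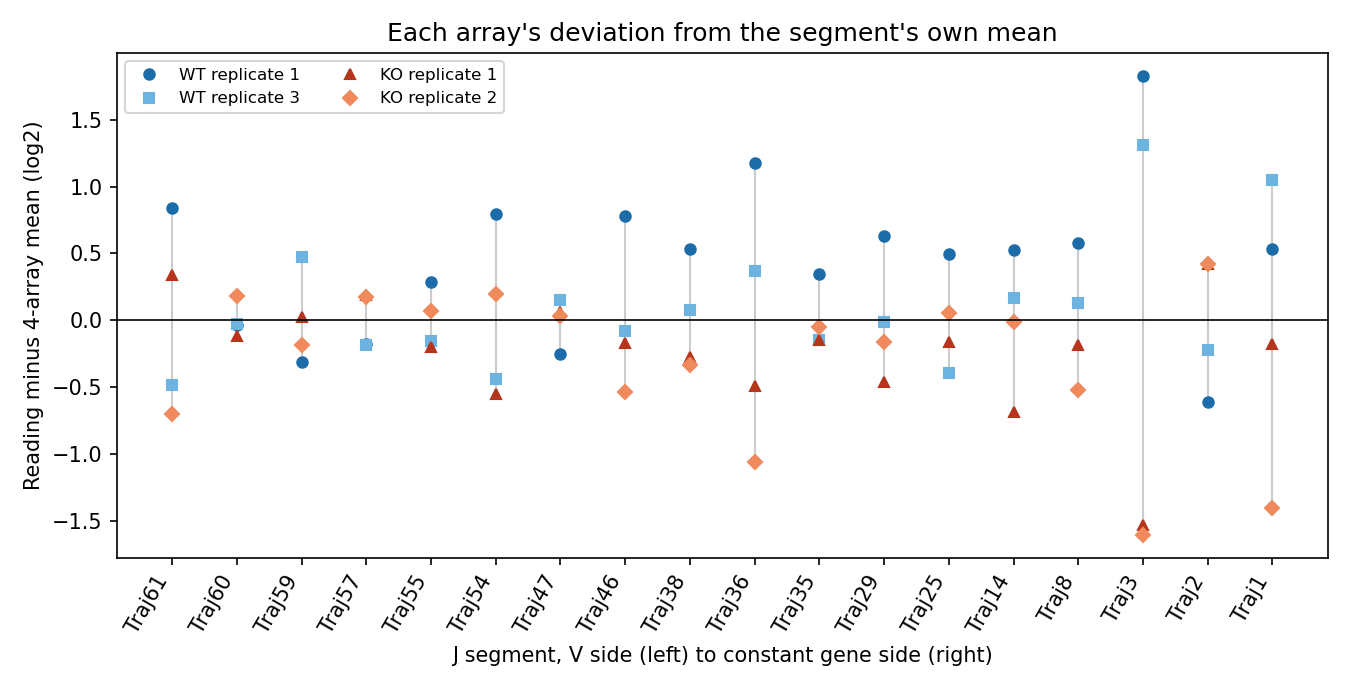
Reading of each array minus the segment's mean over the 4 arrays (vertical axis, log2) for the 18 Traj segments in locus order, with a grey line from the lowest to the highest array. WT replicate 1 is the highest point for 12 segments, and for Traj3 both WT points lie more than 1 above the mean and both KO points more than 1 below it.

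The V segments of the same locus did not show WT replicate 1 highest so often. Of 86 Trav rows, WT replicate 1 was above WT replicate 3 for 26 and gave the highest reading for 18.6%. Over all 86 the median of WT replicate 1 minus WT replicate 3 was -0.13. Their median difference between the groups was -0.04, with 53 lower and 33 higher, and 0 passed a limma adjusted p under 0.05. A change of 2-fold or more was found for 3 Trav segments upward and 3 downward, 3.49% each, against 0.388% and 0.278% of all rows. Without overlap, 32.6% of Trav rows were lower and 27.9% higher, against 44.4% and 11.1% of Traj and 17.5% and 21.1% of all rows. At an unadjusted limma p under 0.05, 20.9% of Trav rows were lower and 14.0% higher, against 3.81% and 6.45% of all rows. The gaps between arrays of a group had medians of 0.22 (WT) and 0.18 (KO), between those of Traj and of all rows. The V segments of the beta chain, 21 Trbv rows, had a median difference of 0.08 with 6 lower and 15 higher. WT replicate 1 was above WT replicate 3 for 5 Trbv rows and for 4 of 5 V segments of the gamma chain, Trgv. Whether Traj differs from these families was not tested.

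**Figure D4:**
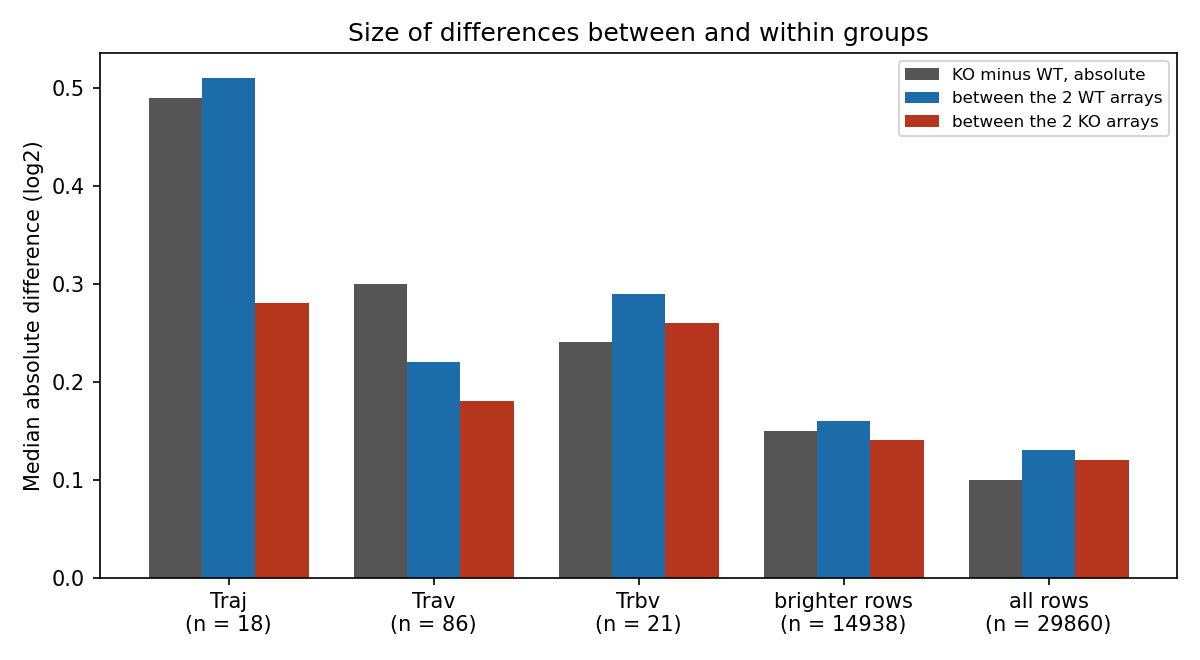
Median absolute log2 difference (vertical axis, from 0) between the group means, between the 2 WT arrays and between the 2 KO arrays, for Traj, Trav, Trbv, the brighter rows and all rows (number of rows under each name). For Traj the bars are 0.49, 0.51 and 0.28, and for all rows 0.10, 0.13 and 0.12.

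The genes that build and carry the receptor gave no call. Of 24 recombination and receptor genes listed, 15 had a cluster of their own, and 0 passed a limma adjusted p under 0.05 in either direction, where 0.0067% of all rows passed. At an unadjusted limma p under 0.05 there were 3 higher and 1 lower, against 6.45% and 3.81% of all rows. Trac, the constant gene into which every J segment is spliced, was among those without one, so the J readings could not be set against it. Cd3e, a signalling chain of the receptor complex, read 16.28 and 16.32 in the arrays labelled WT and 16.91 and 16.82 in those labelled KO, 1.48-fold higher (limma adjusted p 0.134). Cd3d was 1.11-fold and Cd3g 1.07-fold higher.

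Genes of the joining reaction showed small differences. Rag2, a subunit of the recombinase, read 4.24 to 4.53 and Dntt, which adds bases at the joins, 3.98 to 4.36, both below the median row on every array. Nhej1, a factor of DNA end joining, read 7.09 and 7.27 in the arrays labelled WT and 7.55 and 7.72 in those labelled KO, 1.37-fold higher (limma adjusted p 0.394). Dad1, the gene that follows the locus beyond Trac, read 12.16 and 12.24 against 11.87 in both arrays labelled KO (limma adjusted p 0.414).

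The segments of the invariant receptors, Traj18 of invariant NKT cells and Traj33 of mucosal-associated invariant T cells, were not analysed here. Their V partners were measured in part. Trav1, the partner of Traj33, had 9.60 and 9.85 in the arrays labelled WT and 9.86 and 9.76 in those labelled KO, so the groups overlapped. The partner of Traj18 is Trav11, whose copies Trav11d and Trav11n were at 0.856 and 0.859 times their WT level. Both were lower without overlap in the arrays labelled KO, as were 17.5% of all rows, with limma adjusted p of 0.684 and 0.625. Zbtb16, the transcription factor of these innate-like T cells, read 4.10 to 4.27.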

How the data were processed

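The single deposited table holds the authors' log2 values for 4 arrays. RMA, a multi-array summary method, and Transcriptome Analysis Console are named, per the submitters' processing notes. Neither build, annotation nor background handling is stated there. The values run from 1.82 to 19.38. Clusters were named through the platform annotation. Of 65528 clusters, 30390 had 1 symbol (repeats counted once), 2127 had several and 33011 were not listed. Symbols were updated through RefSeq of GRCm38.p6, used only for names, gene types and neighbours. For 420 genes with several clusters the brightest was kept, and every Traj cluster was kept, which left 29860 rows.

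KO minus WT was fitted on all rows with limma 3.58.1 in R 4.3.3 (lmFit, eBayes with an intensity trend, two-sided, Benjamini-Hochberg over all rows, threshold 0.05). The median standard error was 0.118. Folds are powers of 2 of the differences. Precision is limited by the number of arrays. The procedure was tested on simulated data. Members, lists, alternatives and the rule for named segments were chosen with earlier results of these data known. That rule named the separated segments, the 5 brightest and 5 dimmest, the 3 with the largest gap in each group, and any that passed under an alternative. It named nearly all, and the rest were added. A planned search for recombination signal sequences was not run.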

Additional observations from a re-analysis of the deposited data

How the results depend on the processing

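No paired analysis was possible because the groups share only 1 replicate number. The alternatives were median-centring, a further quantile normalization, the brighter rows alone, other sets of rows, eBayes without a trend or robust, a threshold of 0.10, and leaving out each array, where a lone array is assumed to vary like the pair of the other group. Traj3 passed (1 segment lower) among the brighter rows alone, and at an adjusted p under 0.10, so 1 in place of 0 in both. Without an array, 0 segments passed. The further ranges over the 4 fits without an array were -0.86 to -0.19 for the median difference, 1 to 2 segments higher and 3 to 8 lower at an unadjusted p, 2 to 4 higher and 9 to 13 lower without overlap, and 0 to 1 higher and 3 to 5 lower by at least 2-fold. The cause of these shifts was not tested. The share of all rows is not given for the fits without an array. Their counts can therefore not be set against the shares of the fit on all arrays. For the counts without overlap, 2 arrays and 1 separate more easily than 2 and 2.

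Of the 18 segments, 10 kept their sign without each array. The signs of the other 8 turned in at least 1 such fit: differences ran from -1.02 to 0.30 for Traj61, -0.09 to 0.22 for Traj60, -0.56 to 0.23 for Traj59, -0.36 to 0.08 for Traj55, -0.98 to 0.26 for Traj54, -0.11 to 0.30 for Traj47, -0.45 to 0.05 for Traj35 and -0.55 to 0.34 for Traj25. So did those of Cd247 (-0.21 to 0.28), Xrcc5 (-0.20 to 0.27) and Xrcc6 (-0.01 to 0.30). No segment changed sign under the settings that kept all 4 arrays. Median-centring gave a median difference of -0.33 and quantile normalization -0.31.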
